A study of Mus musculus with 36 samples.

Results

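Lrig1 GL cells, the genetically labelled progeny of Lrig1-expressing hair follicle (HF) cells, were profiled 2 weeks after a first full-thickness wound (2w pw1) and compared with Lrig1 GL cells taken before wounding (0w). The members were chosen by the population and time point in the labels. They are 6 of the 36 mini-bulk RNA-seq libraries of the study, with 3 libraries at 2w pw1 and 3 at 0w, each from a separate mouse. Both groups came from adult Lrig1-EGFP-ires-CreERT2 mice, of both sexes, crossed with Rosa26-fl/STOP/fl-tdTomato mice. A single topical dose of hydroxytamoxifen on the tail skin, given a week before wounding, switched on tdTomato in cells that expressed Lrig1. The controls thus carried the same alleles and had received the same drug, but they were not matched in time. They were taken a week after the dose and the 2w pw1 cells 2 weeks later than that, when the mice were older. The series has no unwounded group at that later time, so time since labelling and age cannot be told apart from wounding. The wound was made in the tail with a circular biopsy punch. The tdTomato+ epidermal cells were sorted by flow cytometry, after wounding from a zone that held the wound bed together with more distal HFs, and were sequenced as small pools by a modified Smart-seq2 protocol. The label is inherited by all descendants of a recombined cell wherever they move, and the sort did not separate cells in the wound bed from cells still in their follicle. In such pools, fewer cells of a type and less RNA per cell cannot be told apart. The remaining Lrig1 GL libraries (1w, 4w and 8w pw1, and 1w after a second wound made at 8w, 1w pw2) and the Lgr5 GL libraries at 0w and 2w pw1 served only to place the 2w pw1 values. The numbers that name the 2w pw1 columns are not those in the labels, so these libraries are called a, b and c.

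Lrig1 marks stem cells of the junctional zone and infundibulum, the upper part of the HF that opens onto the interfollicular epidermis (IFE) and that also feeds the sebaceous gland. After a full-thickness wound, keratinocytes of the IFE and of the upper follicle become migratory, switch on the wound keratins Krt6, Krt16 and Krt17, and rebuild the epidermis over the wound bed. The comparison asks which transcripts differ from the unwounded state at this time after the first wound. How far the wound had closed by then was not tested.

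The 6 libraries held from 1491780 to 3295434 counts on genes. Levels are given as CPM (counts scaled by the library's total and by edgeR's TMM factor, the usual CPM), and 3 counts, taken as the detection floor, stood at 1.01 to 1.92 CPM. The libraries carried no molecular identifiers, so floors and intervals cover counting error only. Across the 14306 genes left by edgeR's filter for low counts, Pearson's r of log2 CPM was 0.663 to 0.727 between libraries at 0w, 0.742 to 0.806 between libraries at 2w pw1 and 0.672 to 0.790 between the groups, where genes are not independent replicates. All 8 keratinocyte markers (Krt5, Krt14, Trp63, Cdh1, Epcam, Perp, Dsp and Sfn) were present in each library. Their summed level was 22323 to 24561 CPM at 0w and 31051 to 35318 CPM at 2w pw1 (two-sided exact permutation test, p = 0.1, the smallest that 3 against 3 libraries allow). Most of that difference was Krt14, with 10329 ± 2679 CPM at 0w and 17964 ± 4178 CPM at 2w pw1 (SD, n = 3), while Trp63 (413 ± 172 and 335 ± 124 CPM), Cdh1 (263 ± 145 and 186 ± 20.1 CPM) and Epcam (294 ± 123 and 256 ± 38.9 CPM) had lower means at 2w pw1. Krt5 (3810 ± 602 and 3881 ± 1119 CPM), Perp, Dsp and Sfn had higher means at 2w pw1 with groups that overlapped. Perp stood at 4792, 5880 and 6188 CPM at 0w and at 6280, 5482 and 8724 CPM at 2w pw1, and Dsp at 1287, 2681 and 2020 CPM and 2154, 1756 and 4002 CPM. Fibroblast markers summed to 188 to 319 CPM at 0w and 164 to 281 CPM at 2w pw1, with Lum and Dpt not listed in the table, and the exact p was 0.8. Of the T and NK cell markers 8 of 10 were not listed, the others summed to at most 1.54 CPM, and 7 of the 12 Langerhans cell and macrophage markers, Cd207 and Adgre1 among them, were not listed either. Of the latter, the antigen presentation genes Cd74, H2-Aa and H2-Ab1 had no count in the 3 libraries at 0w. At 2w pw1 Cd74 stood at 14.3, 11.97 and 6.42 CPM, H2-Aa at 13.9, 0 and 18.9 CPM and H2-Ab1 at 0, 5.04 and 25.3 CPM, so that Cd74 was present in all 3 wounded libraries and in none at 0w. Cd68 stood at 33.7 CPM in library 2 at 0w and at 0.630 CPM or less in the others, and the summed markers were at 1.54, 34.1 and 0 CPM at 0w and 28.6, 17.6 and 52.0 CPM at 2w pw1 (exact p = 0.3). Endothelial and pericyte markers summed to 0.406 to 28.2 CPM at 0w and 8.04 to 97.6 CPM at 2w pw1 (exact p = 0.3). Melanocyte markers summed to 7.05 to 57.7 CPM over the 6 libraries, Merkel and nerve markers to 3.38 to 20.5 CPM, skeletal muscle markers to at most 6.30 CPM and erythrocyte markers to at most 6.42 CPM. The part of these cells in the results below was not tested.

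Library c at 2w pw1 stood apart from the other 5 in its composition. Counts on mitochondrially encoded genes made up 8.99% of it, against 3.15 to 5.60% in the others. Its count-weighted GC content was 46.7%, against 48.9 to 49.3% in the others. As the plot of library composition shows, it lay towards the 3 libraries at 8w pw1, where the mitochondrial share was 10.9 to 14.4% and the GC content 45.4 to 46.0%. Its GC content was also within that of the libraries at 1w pw2 (46.2 to 47.1%), where the mitochondrial share was 4.89 to 8.66%. A library at 1w pw1 (8.41%) and a library at 4w pw1 (8.68%) had similar mitochondrial shares. Between the groups as a whole the mitochondrial share was 4.58% ± 1.24 (SD, n = 3) at 0w and 6.61% ± 2.07 (SD, n = 3) at 2w pw1. An exact permutation test gave p = 0.2. It cannot decide whether the groups differ, since 3 against 3 libraries allow no p below 0.1. Where leaving out 1 of the 6 libraries turned the sign of a list median or moved it by over 1.5 times, the range over the 6 fits without a library is given beside it.

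**Figure D1:**
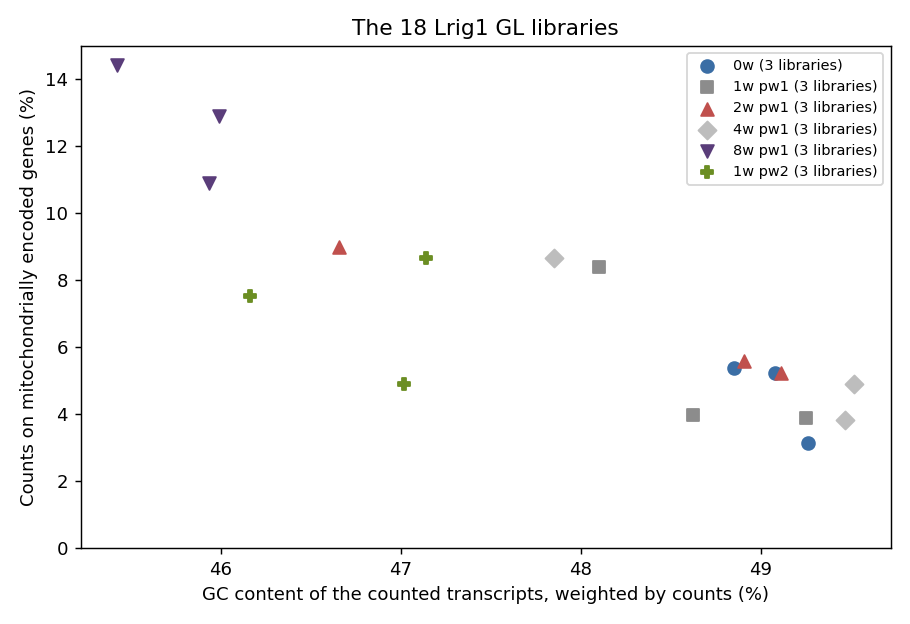
Each point is 1 of the 18 Lrig1 GL libraries, with the count-weighted GC content of its transcripts in percent on the x axis and the percentage of its counts on mitochondrially encoded genes on the y axis. One 2w pw1 library lies at 46.7% GC and 8.99%, apart from the other two, which lie among the 0w libraries at 48.9 and 49.1% GC.

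No gene passed an adjusted p below 0.05 with an absolute log2 fold change over 1 between 2w pw1 and 0w in edgeR's quasi-likelihood test, which is 0% of the 14306 genes tested. The study set the same cut-offs on a single test of all its time points after removing surrogate variables, whereas here they were set on each contrast. The smallest adjusted p was 0.0508, shared by 11 genes, and 29 genes lay under 0.1 (23 with a higher and 6 with a lower level at 2w pw1). At an unadjusted p under 0.05 there were 1499 genes, 837 higher (5.85%) and 662 lower (4.63%). The other tests gave different counts on the same libraries. edgeR's likelihood ratio test called 132 genes higher (0.923%) and 53 lower (0.37%), DESeq2 called 165 higher and 96 lower, and limma-voom called 0. The count depended on single libraries. Without library 3 at 0w the quasi-likelihood test called 37 genes (33 higher and 4 lower), without library 1 it called 1, and without any of the other 4 it called 0. The 3 libraries at 2w pw1 all lay above the 3 at 0w for 873 genes (6.1%) and all below for 751 (5.25%), and these shares are the background for the counts of separated genes that follow. Over all genes tested, 7058 had a higher and 7225 a lower fitted level at 2w pw1, with a median log2 fold change of -0.01. None of the differences from 0w given below passed the quasi-likelihood test, and they are described by their values in each library and by the likelihood ratio test.

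Among genes whose groups did not overlap, the smallest p-values for a higher level belonged to Rab31, Cyp4f39, Grip1, Tent5a, Serpinb3d, Them5, Mmp3, Tcim, Mrps22 and Gorab. Rab31, a small GTPase of vesicle trafficking (chr17:65651729-65772752 on GRCm38, minus strand), stood at 0, 1.62 and 3.20 CPM at 0w and at 50.5, 34.01 and 42.9 CPM at 2w pw1. The lowest wounded library was above the highest unwounded library by more than the range within either group. Its log2 fold change was 4.72 ± 0.74 (SE), with an adjusted p of 0.0508 in edgeR's quasi-likelihood test and 9.15e-08 in its likelihood ratio test. Cyp4f39 (chr17:32452723-32493320, plus strand) encodes a cytochrome P450 that hydroxylates the very long fatty acids of epidermal ceramides. No count was found in any 0w library, against 17.9, 8.82 and 21.96 CPM at 2w pw1, which is at least 10.4-fold higher than the mean floor of 3 counts per library. Mmp3 (chr9:7445822-7455975, plus strand), the secreted matrix protease stromelysin-1, was likewise at 0 in the 3 libraries at 0w. It reached 21.9, 51.6 and 18.6 CPM at 2w pw1, at least 19.7-fold above the same floor. Grip1, a scaffold protein with PDZ domains, had 1.03, 0.812 and 0 CPM at 0w and 22.8, 17.6 and 31.8 CPM at 2w pw1.

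The remaining genes of this group differed in how much of the signal came from library c. Tent5a, a poly(A) polymerase, stood at 18.5, 21.5 and 24.98 CPM at 0w and at 67.9, 120.3 and 245 CPM at 2w pw1, with the highest value in library c (log2 fold change 2.74 ± 0.47). Tcim, a small regulator of transcription, showed the same order, with 15.9, 17.9 and 31.4 CPM at 0w and 76.4, 87.5 and 226 CPM at 2w pw1. Mrps22, a protein of the mitochondrial ribosome, had 14.9, 7.72 and 24.98 CPM at 0w and 55.4, 66.1 and 162 CPM at 2w pw1. Library c was thus the highest of the 3 wounded libraries for each of these, although libraries a and b also lay above all of 0w. Them5, a mitochondrial acyl-CoA thioesterase, was instead even across the wounded libraries, at 416, 406 and 484 CPM against 115, 69.03 and 190.2 CPM at 0w. Serpinb3d, an intracellular serine protease inhibitor of the serpin B family, had its lowest wounded value in library c, at 138, 91.9 and 43.3 CPM against 1.03, 0 and 0 CPM at 0w. On so few counts at 0w the ratio of the groups was 256 (95% counting interval 70.6 to 2120.1). Its gene lies in a cluster of near-identical Serpinb3 copies, among which counting can split reads. Gorab, a Golgi protein, had 0, 0 and 0.640 CPM at 0w and 11.6, 8.19 and 11.8 CPM at 2w pw1, a ratio of 65.1 (95% counting interval 11.3 to 2607).

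Lower at 2w pw1, with groups that did not overlap and the smallest p-values, were Atp7a, Vps16, Tsc22d3, Pbxip1, Lpin1, Lysmd1, Shprh, Snx10 and Adgra3. Atp7a (chrX:106027276-106124926, plus strand), the copper-transporting ATPase of the secretory pathway, stood at 4.62, 26.4 and 14.7 CPM at 0w and at 0, 0 and 0.338 CPM at 2w pw1. A single count was left in the 3 wounded libraries, and the ratio was 0.00907 (95% counting interval 0.000227 to 0.0518, adjusted p = 0.0508 in edgeR's quasi-likelihood test). Tsc22d3, the glucocorticoid-induced leucine zipper protein, stood at 309, 586 and 395 CPM at 0w and at 19.7, 54.8 and 104 CPM at 2w pw1. All 3 wounded libraries were below the lowest unwounded one, and the log2 fold change was -2.85 ± 0.58 (adjusted p = 0.0785). Vps16, a core subunit of the complexes that tether endosomes and lysosomes, had 34.9, 48.3 and 43.6 CPM at 0w and 2.23, 3.15 and 5.41 CPM at 2w pw1. The highest wounded library was well below the lowest unwounded one. Lpin1, a phosphatidate phosphatase of triglyceride synthesis, had 80.6, 29.6 and 69.2 CPM at 0w and 6.70, 15.1 and 7.43 CPM at 2w pw1. Adgra3, an adhesion G protein-coupled receptor, had 157, 217 and 40.4 CPM at 0w and 30.4, 23.3 and 20.3 CPM at 2w pw1, with the 0w libraries widely spread. The other 4 genes (Pbxip1, Lysmd1, Shprh and Snx10) had log2 fold changes from -6.51 to -1.80, and Snx10 had 1 count in all at 2w pw1.

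**Figure D2:**
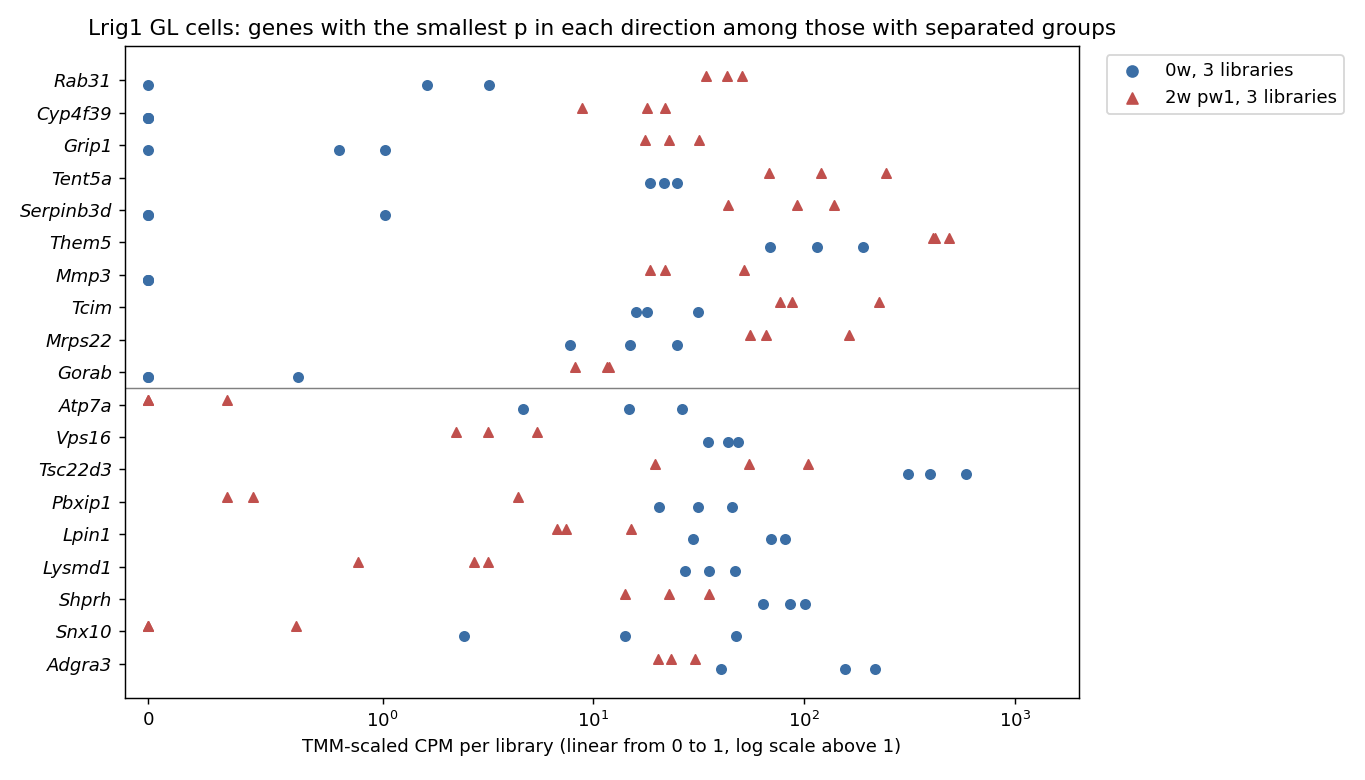
TMM-scaled CPM of each library (x axis, linear from 0 to 1 and logarithmic above) for 10 genes with higher (above the line) and 9 with lower (below the line) levels at 2w pw1 that had separated groups and the smallest p. Circles are the 3 libraries at 0w and triangles the 3 at 2w pw1, and for Rab31 the triangles lie at 34.0 to 50.5 CPM against 0 to 3.20 CPM.

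Transcripts of the junctional zone and infundibulum, the home of these cells, were mostly lower at 2w pw1. Of 11 list members tested, 10 were lower and 1 higher, 3 lay below 0w in all libraries and 0 above, and the median log2 fold change was -0.77 against -0.01 for all genes. Lrig1 itself, which encodes a transmembrane brake on EGF receptor signalling and drives the Cre, stood at 224, 244 and 183 CPM at 0w and at 87.6, 132 and 81.1 CPM at 2w pw1. The groups did not overlap, and the log2 fold change was -1.12 ± 0.33 (adjusted p = 0.262, edgeR's quasi-likelihood test). Gata6, a transcription factor of the sebaceous duct and infundibulum, had 85.7, 112 and 46.8 CPM at 0w and 18.8, 32.7 and 22.6 CPM at 2w pw1. Plet1, a surface marker of the upper isthmus, had 90.3, 115 and 113 CPM at 0w and 89.4, 50.4 and 70.96 CPM at 2w pw1. The groups overlapped for the other members, among them Krt79, a keratin of the infundibulum and sebaceous duct, at 2839, 3130.0 and 3033 CPM at 0w and 2525, 2944 and 1119 CPM at 2w pw1. They also overlapped for the protease inhibitor Cst6, at 5083 ± 1977 CPM at 0w and 2972 ± 1920.0 CPM at 2w pw1 (mean ± SD, n = 3), and for Postn, which encodes the matrix protein periostin, at 2236 ± 726 and 1458 ± 500.3 CPM.

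The bulge list stood lower still. Of 11 members 10 were lower, 4 were separated below 0w and 1 above, the median was -1.08, and the likelihood ratio test called 1 member. Krt15, a keratin of bulge and basal stem cells, stood at 6749.6, 6709 and 3863 CPM at 0w and at 1755, 1079 and 601 CPM at 2w pw1. Every wounded library held less than the lowest 0w library, at a log2 fold change of -2.33 ± 0.60 (adjusted p = 0.188 in the quasi-likelihood and 0.0177 in the likelihood ratio test of edgeR). Lgr5, the Wnt-associated receptor of the lower bulge, had 51.3, 97.1 and 264 CPM at 0w and 8.49, 13.9 and 13.5 CPM at 2w pw1. It was low in all wounded libraries and spread widely at 0w, where library 3 was the highest. The transcription factors Nfib (847 ± 357 against 463 ± 64.1 CPM) and Nfatc1 (547 ± 125 against 343 ± 103 CPM, mean ± SD, n = 3) were lower in all 3 libraries. Gas1, a Hedgehog co-receptor, was the separated member above 0w, at 251, 463 and 186 CPM at 0w and 467, 495 and 889 CPM at 2w pw1. Sox9, which specifies bulge stem cells, overlapped between the groups (1473 ± 699.7 and 792 ± 194 CPM). Without library c, 9 of the 11 bulge members were lower and the median was -0.87. Leaving out library 2 at 0w gave 8 lower and a median of -0.75, and leaving out library 3 at 0w gave 10 lower and a median of -1.42.

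Hair shaft and inner root sheath keratins depended on 1 unwounded library. Krt71, an inner root sheath keratin, stood at 0, 3.25 and 249.8 CPM at 0w and at 2.23, 6.30 and 5.07 CPM at 2w pw1. Krt25 had 2.05, 4.47 and 109.5 CPM at 0w and 0, 2.52 and 0 CPM at 2w pw1. Both were high in library 3 at 0w alone, and without it the log2 fold change of Krt71 went from -4.20 to 1.41 and the list median from -1.16 (8 of 10 tested members lower) to -0.28. Without library c the median was -1.67.

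Sebaceous and lipogenic genes were the other group that stood lower after wounding. Of 16 tested members of the sebaceous gland list 14 were lower and 2 higher, 8 were separated below 0w and 1 above, 10 had an unadjusted p under 0.05 in the lower direction, and the median log2 fold change was -1.52. The likelihood ratio test called 2 of them. Fasn, the fatty acid synthase, stood at 69.3, 110.0 and 136 CPM at 0w and at 27.3, 40.9 and 31.8 CPM at 2w pw1. Its 3 wounded libraries lay close together and below all of 0w (log2 fold change -1.66 ± 0.42, adjusted p = 0.180 in the quasi-likelihood and 0.0254 in the likelihood ratio test). Elovl6, which elongates long-chain fatty acids, had 74.9, 130.3 and 35.9 CPM at 0w and 28.2, 13.2 and 2.70 CPM at 2w pw1. Pparg, the nuclear receptor that directs sebocyte differentiation, had 109, 36.1 and 17.3 CPM at 0w and 8.94, 4.41 and 14.5 CPM at 2w pw1. Its mean was 54.1 ± 48.3 CPM (SD, n = 3) before and 9.29 ± 5.07 CPM after wounding. Cidea, a lipid droplet protein, had 14.4, 9.75 and 23.7 CPM at 0w and 1.79, 0 and 0.338 CPM at 2w pw1. The enzymes Far2 (-2.64 ± 1.15), Acsbg1 (-1.70 ± 0.54) and Dgat2 (-1.05 ± 0.55, log2 fold change ± SE), which make fatty alcohols, acyl-CoA and triglycerides, were separated below 0w too. Apoe, the lipid carrier, stood at 9178, 10068 and 6235 CPM at 0w and at 4917, 5661 and 3441 CPM at 2w pw1. The separated member above 0w was Fabp5, an epidermal fatty acid binding protein that is also found in the IFE, with 384, 112 and 769.9 CPM at 0w and 1561, 1141 and 1852 CPM at 2w pw1 (log2 fold change 1.85 ± 0.63, adjusted p = 0.344). Without library c 15 of 16 members were lower and the median was -1.45, and leaving out library 1 at 0w gave the median nearest to 0, -0.88. Cholesterol synthesis genes had 8 of 20 higher, 12 lower, 2 separated below 0w and a median of -0.28 (-0.45 to -0.13 without single libraries).

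Glycolysis and hypoxia genes stood higher at 2w pw1. Of 27 tested members 22 were higher and 5 lower, 8 were separated above 0w and 0 below, 8 had an unadjusted p under 0.05 in the higher direction, and the median log2 fold change was 0.82. The summed level of the list was 3682 to 4985 CPM at 0w and 6015 to 8328 CPM at 2w pw1, with no overlap. The likelihood ratio test called 4 members, which act along the path from glucose uptake to lactate export. Slc2a1, the glucose transporter Glut1, stood at 109.8, 208 and 145 CPM at 0w and at 503, 536 and 387 CPM at 2w pw1 (log2 fold change 1.62 ± 0.37, adjusted p = 0.121 in the quasi-likelihood and 0.00782 in the likelihood ratio test). Pfkl, a phosphofructokinase, which controls the committed step of glycolysis, had 13.9, 15.8 and 19.2 CPM at 0w and 84.5, 129 and 70.96 CPM at 2w pw1. Both genes were lower in library c than in a and b, and still above every 0w library. Ldha, the lactate dehydrogenase subunit that turns pyruvate into lactate, had 545, 421 and 527 CPM at 0w and 1177, 1307 and 997 CPM at 2w pw1. Slc16a3, the lactate exporter, had 0.513, 0 and 0.640 CPM at 0w and 5.36, 22.7 and 16.6 CPM at 2w pw1, a ratio of 42.7 (95% counting interval 11.5 to 358). The other separated members were the glycolytic enzymes Tpi1 and Pgk1, the carbonic anhydrase Car9 and the angiogenic factor Vegfa. Pgk1 stood at 153, 22.7 and 110.2 CPM at 0w and at 229.7, 167 and 275 CPM at 2w pw1, and Car9 at 0.513, 0 and 1.28 CPM and 14.3, 8.19 and 19.9 CPM. Eno1, another glycolytic enzyme, overlapped because library 1 at 0w (1224, 385 and 1109 CPM over the 3 libraries) exceeded library c (1435, 1703 and 1147 CPM over a, b and c). Car12, a second carbonic anhydrase, also overlapped, with 878 ± 198 CPM at 0w and 1265 ± 370.2 CPM at 2w pw1. Without library c the list had 25 of 28 tested members higher and a median of 0.74. Without library b 20 were higher and 7 lower, with a median of 0.62, and without library 2 at 0w 22 were higher and 6 lower, with a median of 0.62.

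The hypoxia element core ACGTG, the short sequence bound by hypoxia-inducible factors, was searched on both strands in the 250 bases upstream of each RefSeq gene start (GRCm38.p6). It was found in 17 of 35 promoters (48.6%) of the 25 glycolysis and hypoxia genes that had a promoter in the table, against 21.5% of the 12060 promoters of genes tested and 16.6% of all 32851. The list was chosen for its known hypoxia genes, so this share describes the choice of list and not the change at 2w pw1. Among the genes with the smallest p, 1 of 12 promoters (8.33%) held the core for a higher level and 3 of 13 (23.1%) for a lower level. Of the 8 separated members of the list, Slc2a1, Ldha, Slc16a3, Car9, Pgk1 and Vegfa held the core. The Slc2a1 promoter is printed as an example of these, for the gene that brings glucose into the cell, with the core in capitals, which starts 36 bases before the RefSeq start (chr4:119108495-119108744, plus strand).
Slc2a1: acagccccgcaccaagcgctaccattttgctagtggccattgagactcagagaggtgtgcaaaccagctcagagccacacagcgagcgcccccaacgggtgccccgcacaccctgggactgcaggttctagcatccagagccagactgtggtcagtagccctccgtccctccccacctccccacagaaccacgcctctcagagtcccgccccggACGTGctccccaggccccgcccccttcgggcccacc

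Wound keratins and alarmins were split. Of 13 tested members 8 were higher and 5 lower, 4 were separated above 0w and 0 below, 3 were called by the likelihood ratio test, and the median was 0.13. Without library 1 at 0w the median was 1.18, with 11 of 13 higher, without library 2 it was 0.66, without library c it was 0.24, with 9 higher, and without library a at 2w pw1 it was 0.066. Krt6a, the keratin of wound-edge and companion layer keratinocytes, stood at 539.9, 657 and 621 CPM at 0w and at 1983, 1563 and 783 CPM at 2w pw1. Krt6b, its close paralog, had 64.7, 82.8 and 35.2 CPM at 0w and 417, 283 and 130.4 CPM at 2w pw1. Both keratins were lowest in library c among the wounded libraries, and their log2 fold changes were 1.25 ± 0.46 and 2.18 ± 0.63 (adjusted p = 0.373 and 0.251, edgeR's quasi-likelihood test). Reads can be split between these near-identical genes, so their separate values are uncertain. Krt16, their usual partner, had 79.6, 50.8 and 236 CPM at 0w and 759, 399.9 and 146 CPM at 2w pw1, so that library c lay within the 0w range. Krt17, which the unwounded upper follicle also makes, overlapped (2838 ± 1169.6 CPM at 0w and 2114 ± 1093 CPM at 2w pw1). S100a8, a calcium-binding alarmin of stressed keratinocytes and neutrophils, ran in the opposite order to the keratins. It stood at 0, 0.812 and 0 CPM at 0w and at 119, 134 and 538 CPM at 2w pw1, highest in library c, with a ratio of 911 (95% counting interval 252 to 7528, adjusted p = 0.0785). S100a9, with which it pairs, was at 0 in each 0w library and at 0.894, 22.04 and 73.3 CPM at 2w pw1. The neutrophil and mast cell markers, beside these 2 genes, summed to 1.92 to 14.9 CPM at 0w and 2.68 to 12.5 CPM at 2w pw1, with 6 of 9 not listed, including Mpo, Elane and Cxcr2.

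Small proline-rich genes encode cross-linked proteins of the cornified envelope, and those of the Sprr2 family were near the detection floor at 0w. Of the 8 tested members of the small proline-rich and late cornified envelope list 6 were higher and 2 lower, 3 were separated above 0w, 1 was called by the likelihood ratio test, and the median was 3.45. With the 2 members that had no count at 0w set to their lower bound, the median was 2.34. Leaving out library 1 at 0w or library c gave 2.27 and 2.37, and leaving out library 2 at 0w gave 4.61. Sprr2a1 had 0, 4.87 and 0.640 CPM at 0w and 86.3, 61.7 and 34.1 CPM at 2w pw1 (adjusted p = 0.126 in the quasi-likelihood and 0.00206 in the likelihood ratio test). Sprr2h had 0, 0 and 3.20 CPM at 0w and 17.9, 5.67 and 28.7 CPM at 2w pw1. Sprr2b was low in both groups, at 0, 1.22 and 0 CPM and 5.36, 1.89 and 3.04 CPM. Sprr2d had no count at 0w and 44.7, 6.93 and 0 CPM at 2w pw1, so that library c overlapped with 0w, and Sprr1b overlapped too (27.7, 1.62 and 149.9 CPM at 0w and 293, 141 and 140.2 CPM at 2w pw1). The Sprr2 genes are close copies of each other, among which counting can split reads. Genes of IFE differentiation had 7 of 18 members higher, 11 lower, 0 separated and a median of -0.12 (-0.40 to 0.17 without single libraries).

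The AP-1 motif TGANTCA, which reads the same on both strands, was found in the 250 upstream bases of 6 of the 8 promoters (75%) of this list, against 4.65% of the 12060 promoters of genes tested and 6.75% of all 32851. The 6 belong to Sprr1a, Sprr1b, Sprr2b, Sprr2d, Sprr2e and Sprr2h, which are related genes, so these promoters are not independent of each other. The promoter of Sprr2a1, the member that the likelihood ratio test called, did not hold the motif. The motif was also found for Mmp3, 1 of 12 promoters (8.33%) of the 9 matched genes with the smallest p for a higher level. The share was alike for the genes with the smallest p for a lower level, 1 of 13 promoters (7.69%), that of Snx10. Gja1 held 1 of the 3 promoters with the motif among 10 of the gap and tight junction list, and Mmp13 and Car9, both separated above 0w, held it as well. The promoters of Sprr2h, Sprr2b, Mmp3 and Gja1 are printed as examples of genes separated above 0w that hold the motif, which is in capitals. It starts 198 bases before the RefSeq start in Sprr2h (chr3:92385435-92385684), 195 in Sprr2b (chr3:92316455-92316704), 46 in Mmp3 (chr9:7445572-7445821) and 19 in Gja1 (chr10:56377050-56377299), all on the plus strand of GRCm38.p6.
Sprr2h: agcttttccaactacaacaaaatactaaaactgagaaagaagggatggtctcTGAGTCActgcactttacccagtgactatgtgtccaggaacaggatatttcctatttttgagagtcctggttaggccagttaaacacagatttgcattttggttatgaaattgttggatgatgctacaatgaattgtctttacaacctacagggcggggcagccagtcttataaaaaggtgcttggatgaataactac
Sprr2b: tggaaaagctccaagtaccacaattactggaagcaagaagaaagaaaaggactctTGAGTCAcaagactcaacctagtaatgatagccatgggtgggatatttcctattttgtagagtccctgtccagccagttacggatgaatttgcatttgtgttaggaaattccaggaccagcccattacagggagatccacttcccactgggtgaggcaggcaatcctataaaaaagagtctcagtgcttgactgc
Mmp3: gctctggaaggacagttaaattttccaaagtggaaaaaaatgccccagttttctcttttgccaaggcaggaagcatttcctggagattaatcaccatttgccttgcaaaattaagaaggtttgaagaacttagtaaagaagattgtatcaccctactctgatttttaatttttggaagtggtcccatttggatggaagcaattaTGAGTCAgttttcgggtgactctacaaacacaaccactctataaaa
Gja1: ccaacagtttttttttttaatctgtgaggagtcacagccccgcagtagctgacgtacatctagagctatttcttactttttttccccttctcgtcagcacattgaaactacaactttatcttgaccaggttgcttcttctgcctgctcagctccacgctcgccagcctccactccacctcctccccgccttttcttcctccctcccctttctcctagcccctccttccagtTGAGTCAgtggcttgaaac
The match is a description of these letters and not a bound site. Genes of AP-1 factors and other immediate early genes were mostly lower at 2w pw1, with 19 of 22 lower, 3 separated below 0w and 1 above. Their median was -0.48, with a range of -0.74 to -0.40 without single libraries. Without library c 20 were lower, without library 3 at 0w 16, and without library 2 at 0w 14. Egr3, an immediate early transcription factor, stood at 119, 56.8 and 51.2 CPM at 0w and at 21.9, 9.45 and 11.8 CPM at 2w pw1 and was called by the likelihood ratio test (adjusted p = 0.0254). Egr1 overlapped, because library 1 at 0w lay within the wounded range (172, 603 and 679.6 CPM at 0w and 259, 205 and 161 CPM at 2w pw1). The member above 0w was Fosl1, an AP-1 subunit of migrating keratinocytes, with 0 counts at 0w and 4.92, 1.89 and 9.12 CPM at 2w pw1. Heat shock genes, which cell dissociation also induces, showed 7 of 16 higher and 9 lower, with a median of -0.14 (-0.18 to 0.024 without single libraries).

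Migration, adhesion and protease genes were higher in 17 of 25 tested members and lower in 8, with 6 separated above 0w, 1 below, 2 called by the likelihood ratio test and a median of 0.48, or 0.27 with members at 0 set to their bound. Without library c the median was 0.33, and without library b it was 0.23. Besides Mmp3, the collagenase Mmp13 was at 0 at 0w and at 16.5, 58.6 and 19.9 CPM at 2w pw1, at least 20.3-fold above the floor. Both matrix proteases were highest in library b. Itgb1, the common beta subunit of the basal integrins, stood at 72.9, 153 and 165 CPM at 0w and at 298, 292 and 319 CPM at 2w pw1, close together after wounding (log2 fold change 1.22 ± 0.38, adjusted p = 0.293). Tpm4, an actin-binding tropomyosin, had 273, 93.8 and 173 CPM at 0w and 389, 413 and 565 CPM at 2w pw1. Fscn1, which bundles actin in cell protrusions, had 2.57, 12.99 and 21.8 CPM at 0w and 29.9, 32.7 and 21.96 CPM at 2w pw1. Of 14 basal layer and hemidesmosome genes 8 were higher and 6 lower, with a median of 0.10 (-0.13 to 0.22 without single libraries). Krt14, the main basal keratin, was separated, at 12310.0, 7281 and 11396 CPM at 0w and 18189, 22025 and 13678 CPM at 2w pw1 (log2 fold change 0.80 ± 0.26, adjusted p = 0.304). Itga6, the hemidesmosomal integrin, overlapped, at 233 ± 121 and 308 ± 80.4 CPM.

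**Figure D3:**
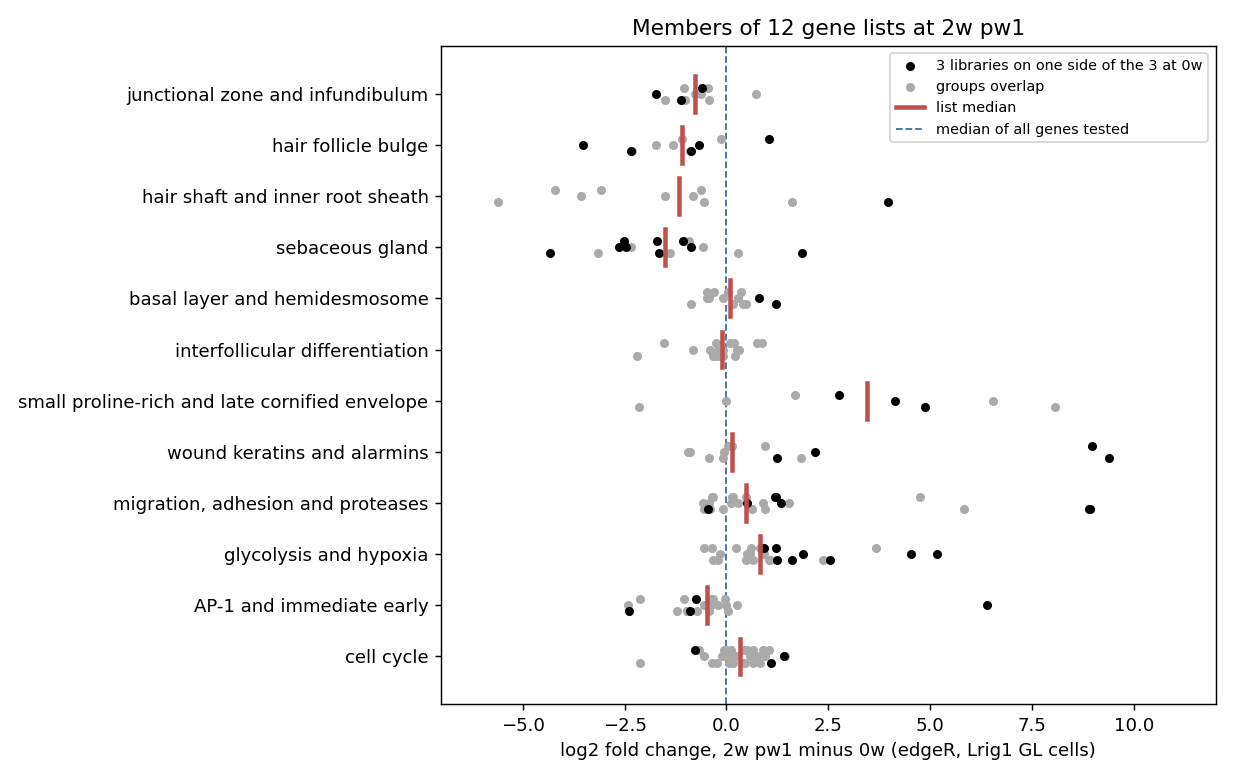
Log2 fold change of 2w pw1 minus 0w (x axis, edgeR) of the tested members of 12 gene lists, 1 point per gene. Black points are genes whose 3 libraries at 2w pw1 all lie on one side of the 3 at 0w, red bars are list medians and the dashed line is the median of all genes, and the sebaceous and the glycolysis medians lie at -1.52 and 0.82.

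Cell-cell junctions held the gene with the next smallest adjusted p in the lists. Gja1, connexin 43, the gap junction channel of basal keratinocytes, stood at 150.4, 94.2 and 181 CPM at 0w and at 451, 365 and 865 CPM at 2w pw1. The lowest wounded library was above the highest 0w library, at a log2 fold change of 1.98 ± 0.39; the adjusted p was 0.0700 in the quasi-likelihood and 0.00101 in the likelihood ratio test of edgeR. Over the whole gap and tight junction list 5 of 13 were higher and 8 lower, with 1 separated each way and a median of -0.28. The sign turned without library 2 at 0w (8 higher, median 0.27) and without library 3 at 0w (7 higher, median 0.13). Desmosome and adherens junction genes had 7 of 18 higher, 11 lower, 0 separated and a median of -0.06 (-0.36 to 0.050 without single libraries).

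A list of 12 surface antigens and stem cell genes was drawn largely from the study's text, which examined some of them on samples of this series, so their counts are no independent evidence of a direction. Of these 7 were higher and 5 lower, 6 were separated above and 3 below 0w, the likelihood ratio test called 2, and the median was 0.60. Ly6a, which encodes the upper-follicle and epidermal surface antigen Sca-1, stood at 326, 186 and 423 CPM at 0w and at 617, 612 and 717 CPM at 2w pw1 (log2 fold change 1.06 ± 0.32, adjusted p = 0.265). Slc2a1, Krt6a, Krt6b, Fabp5 and Krt14 were the other members above 0w, and Lrig1, Lgr5 and Gata6 those below. Postn, Itga6 and Rps6 overlapped, the last, a protein of the small ribosomal subunit, at 301, 115 and 158 CPM at 0w and 116, 128 and 113 CPM at 2w pw1.

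Signalling and chromatin lists had medians between -0.38 and 0.17, with 1 to 5 separated members or none. Tslp, an epithelial cytokine, was the member of the interleukin-1, cytokine and chemokine list that the likelihood ratio test called. It stood at 0, 0 and 1.28 CPM at 0w and at 32.2, 96.99 and 28.4 CPM at 2w pw1, highest in library b (ratio 136, 95% counting interval 37.5 to 1132). The other 16 members of that list were not called, and 10 of the 17 were lower, with a median of -0.24 (-0.35 to 0.13 without single libraries). Among TGF-beta and BMP genes 12 of 22 were higher and 10 lower, with 2 separated above 0w, 3 below and a median of 0.17 (-0.040 to 0.44 without single libraries). Above 0w were the receptor Tgfbr1, at 4.62, 28.4 and 14.1 CPM at 0w and 70.2, 33.4 and 139.6 CPM at 2w pw1, and the ligand Tgfb1, at 1.10 ± 1.03 and 5.90 ± 1.63 CPM (SD, n = 3). Below 0w were the ligands Tgfb3 (26.9 ± 12.3 and 4.90 ± 5.58 CPM) and Bmp2 (31.2 ± 11.9 and 8.49 ± 5.97 CPM) and the BMP target Id2 (95.3 ± 10.9 and 39.2 ± 22.0 CPM). Jag1, a Notch ligand, overlapped by 1 library, at 97.5, 450.3 and 160.1 CPM at 0w and 523, 375 and 935 CPM at 2w pw1, in a Wnt, Notch and Hedgehog list with 9 of 26 higher, 17 lower and a median of -0.34 (-0.56 to -0.12 without single libraries). EGF receptor family genes had 6 of 15 higher, 8 lower, 0 separated and a median of -0.38, which turned to 0.21, with 11 higher and 4 lower, without library 2 at 0w. Interferon and antigen presentation genes had 9 of 17 higher, 7 lower, 0 separated and a median of 0.14, which turned to -0.80 without library b at 2w pw1 and reached 0.63 without library 2 at 0w.

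Of 28 tested Polycomb and H2A deubiquitination genes 12 were higher and 16 lower, with 1 separated above 0w, 3 below and a median of -0.25. Only part of the list acts on the repressive H2AK119ub mark. It also holds Ezh1, Ezh2, Eed and Suz12, which belong to the complex that methylates histone H3. Phc2, a Polycomb repressive complex 1 subunit, stood at 52.9, 55.6 and 37.1 CPM at 0w and at 6.26, 13.2 and 8.79 CPM at 2w pw1. It was the 1 member called by the likelihood ratio test (log2 fold change -2.37 ± 0.58, adjusted p = 0.0170, against 0.152 in the quasi-likelihood test). Usp16, an H2A deubiquitinase, was separated above 0w, at 114, 129.5 and 182 CPM at 0w and 206, 242 and 369 CPM at 2w pw1. The median of this list crossed 0 when single libraries were left out, with a range of -0.30 to 0.10.

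Cell cycle genes were higher in 20 of 30 members, with 2 separated above 0w, 1 below and a median of 0.33. Without library 1 at 0w 26 of 30 were higher and the median was 0.82, and without library 2 at 0w 16 were higher and the median was 0.0097. Antioxidant genes (14 of 22 higher, median 0.16, -0.021 to 0.42 without single libraries), nuclear-encoded oxidative phosphorylation genes (20 of 33 higher, median 0.05, -0.14 to 0.20) and cytoplasmic ribosomal protein genes (32 of 85 higher, median -0.13, -0.24 to -0.045) lay near the median of all genes. The 13 mitochondrially encoded genes had 9 higher, 4 lower and a median of 0.35. mt-Co1, a subunit of cytochrome c oxidase, stood at 4148, 3476 and 3930.0 CPM at 0w and 4208, 4815 and 10454 CPM at 2w pw1. Without library c the median of the 13 was 0.068, without library 1 at 0w it was 0.81, and with a GC-dependent offset in the fit it was -0.21. Over all genes, the median log2 fold change was 0.19 in the 4751 genes with the lowest GC content, -0.03 in the 4750 in the middle and -0.17 in the 4751 with the highest.

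The 2w pw1 libraries were next set against the other wounded times, with which the comparisons share the 2w pw1 libraries. Against 1w pw1 and against 4w pw1 edgeR's quasi-likelihood test called 0 genes, with 968 and 755 at an unadjusted p under 0.05. The likelihood ratio test called 2 and 8, DESeq2 18 and 13, and the smallest adjusted p was 0.119 and 0.1254. In both comparisons this was Atp7a, which had mean levels of 26.8 ± 9.13 CPM at 1w pw1 and 25.7 ± 6.002 CPM at 4w pw1 (SD, n = 3). Of the genes with separated groups and the smallest p-values against 1w pw1, the cyclin Ccnd2 stood at 537 ± 22.1 CPM at 2w pw1 against 221 ± 60.5 CPM, and the deubiquitinase Usp9x at 396 ± 99.7 CPM against 150.5 ± 32.8 CPM. Zgpat, a zinc finger repressor of transcription, stood at 3.87 ± 3.27 CPM at 2w pw1 against 30.5 ± 5.997 CPM at 1w pw1 and 29.5 ± 10.4 CPM at 4w pw1, and Iqce, a protein of the ciliary base, at 14.9 ± 3.96 CPM against 0.937 ± 0.124 CPM at 4w pw1. Against the mean of the other 4 wounded groups there were again 0 calls in the quasi-likelihood test, 1117 genes at an unadjusted p under 0.05, 22 calls in the likelihood ratio test and 50 in DESeq2. Atp7a had the smallest adjusted p there too, 0.0727, at a log2 difference of -6.96. It was at least 15.2 CPM on average at all 5 other times, so 2w pw1 was the time with the lowest level. Cd74, the antigen presentation gene noted above, had 10.9 ± 4.05 CPM at 2w pw1, 1.23 ± 2.13 CPM at 1w pw1 and 2.87 ± 2.79 CPM at 4w pw1 and no count at 8w pw1 or 1w pw2 (adjusted p = 0.574 in the quasi-likelihood test).

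Mean levels over the time course placed 2w pw1 between 1w pw1 and 4w pw1 for Krt6a, Krt6b and Krt16, but not for Krt17, which had 3496 ± 1351 CPM at 1w pw1, 2114 ± 1093 CPM at 2w pw1 and 3323 ± 2197 CPM at 4w pw1. Krt6a had means of 606 ± 60.1 CPM at 0w, 2673 ± 861 CPM at 1w pw1, 1443 ± 609 CPM at 2w pw1, 686 ± 214 CPM at 4w pw1, 375 ± 281 CPM at 8w pw1 and 1661 ± 592 CPM at 1w pw2 (SD, n = 3). Slc2a1 followed with 837 ± 135 CPM at 1w pw1, 475 ± 78.5 CPM at 2w pw1 and 279 ± 130.4 CPM at 4w pw1. The step from 1w to 2w pw1 did not pass the quasi-likelihood test for either gene (log2 fold change -0.89, adjusted p = 0.757 for Krt6a, and -0.82, adjusted p = 0.731 for Slc2a1). Krt15 had its lowest mean at 1w pw1 (597 ± 525 CPM) and stood at 1145 ± 579.6 CPM at 2w pw1 and 2259 ± 1079 CPM at 4w pw1, against 5774 ± 1655 CPM at 0w. Lgr5 was lowest at 2w pw1, with 11.95 ± 3.004 CPM against 27.9 ± 27.2 CPM at 1w pw1, 40.8 ± 30.9 CPM at 4w pw1 and 118 ± 52.1 CPM at 8w pw1, and neighbouring times overlapped in their SDs. Fasn was also lowest at 2w pw1, at 33.3 ± 6.97 CPM against 77.9 ± 37.1 CPM at 1w pw1 and 64.7 ± 8.59 CPM at 4w pw1. Junb, an AP-1 subunit, had 864 ± 385 CPM at 1w pw1 and 323 ± 102 CPM at 2w pw1, beside a level at 0w of 316 ± 37.3 CPM.

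By list, the medians of 2w pw1 against 1w pw1, 4w pw1 and 8w pw1 were -0.30, 0.39 and 0.77 for glycolysis and hypoxia, where the medians of all genes were 0.03, 0.02 and -0.02. For wound keratins and alarmins they were -0.89, 1.07 and 1.34, and for the sebaceous gland list -0.23, -0.54 and -0.19. The bulge list had 0.46, 0.09 and -0.33.

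**Figure D4:**
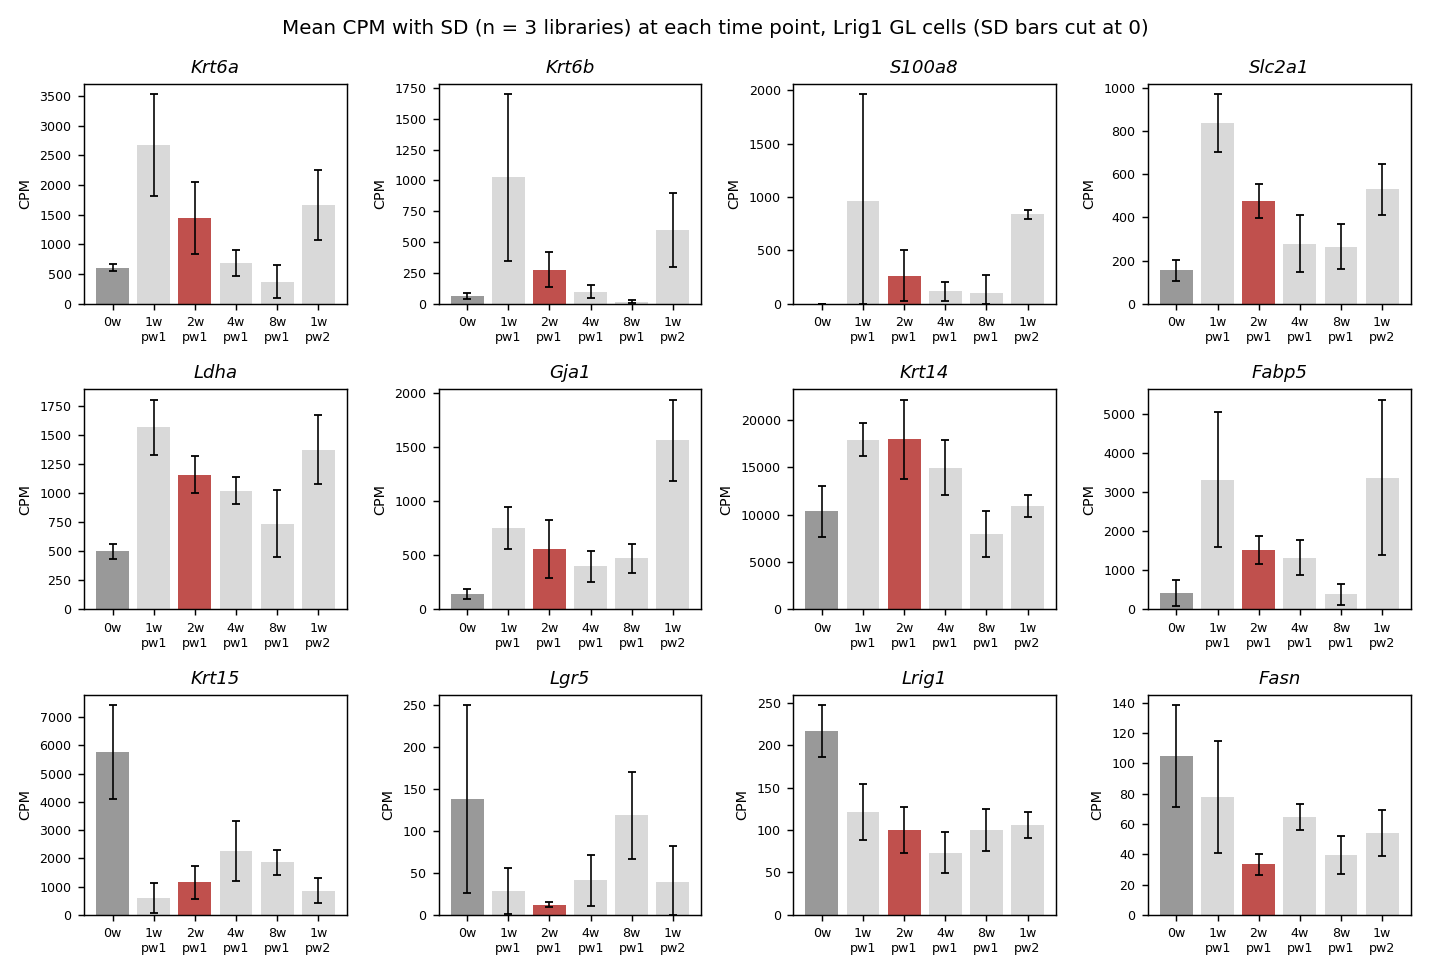
Mean CPM (y axis, from 0) of 12 genes in Lrig1 GL cells at the 6 time points (x axis), with bars for the SD over 3 libraries. The 2w pw1 bars are red, and those of Krt6a, Krt6b, S100a8, Slc2a1 and Ldha lie between the bars at 1w pw1 and at 4w pw1, while that of Lgr5 is the lowest of its panel.

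The comparison of 2w pw1 with 8w pw1, when the skin had reached a new homeostasis, was added after the other counts had been seen. edgeR's quasi-likelihood test called 32 genes higher at 2w pw1 (0.224%) and 34 lower (0.238%), the likelihood ratio test 281 and 343, and DESeq2 331 and 540. The split moved with the scaling, to 30 higher and 54 lower with DESeq2's size factors in edgeR and to 59 higher and 36 lower with upper quartile factors. The composition of the libraries differed along with this comparison. Beside the mitochondrial shares given above, the GC content was 48.2% ± 1.36 (SD, n = 3) at 2w pw1 and 45.4 to 46.0% at 8w pw1. With a GC-dependent offset 3 genes were called, and with 2 surrogate variables 0. Leaving out 2w pw1 library c gave 178 calls, leaving out a gave 0 and b 5, and leaving out 8w pw1 library a gave 2 and b or c 1 each. Among the genes higher at 2w pw1 were Ifitm3, an interferon-inducible membrane protein, at 560.4 ± 108 CPM against 135 ± 10.01 CPM (adjusted p = 0.0280), and Pfn1, the actin regulator profilin, at 768 ± 64.5 CPM against 205 ± 16.2 CPM (adjusted p = 0.0280). Krt6b was called higher as well, at 277 ± 143 CPM against 16.3 ± 10.9 CPM, with a log2 fold change of 4.08 (adjusted p = 0.0327). Cox4i1, a cytochrome c oxidase subunit, and Eif6, a factor of ribosome assembly, had log2 fold changes of 1.33 and 1.76. The lower genes were led by Shprh, a ubiquitin ligase of DNA damage tolerance, at 24.1 ± 10.6 CPM against 228 ± 69.98 CPM (log2 fold change -3.25, adjusted p = 0.00906). Atp7a (log2 fold change -7.43), the Hsp90 co-chaperone Chordc1 (-2.76), the microRNA host gene Mir99ahg (-2.14) and the Wnt receptor Fzd7 (-1.77) followed. Of these 10 genes Atp7a and Fzd7 were still called with the GC-dependent offset, under which the log2 fold changes of Chordc1, Mir99ahg and Cox4i1 were -1.10, -1.26 and 0.86, without a call.

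The difference between Lrig1 GL and Lgr5 GL cells in the change from 0w to 2w pw1 was tested as an interaction in 1 model of all 36 libraries and 16153 genes. Lgr5 GL cells come from mice with the same reporter and an Lgr5-driven CreERT2, which labels the lower bulge. edgeR's quasi-likelihood test called 0 genes, with 1508 at an unadjusted p under 0.05 and a smallest adjusted p of 0.0750 shared by 5 genes. The likelihood ratio test called 109 (45 with a more positive and 64 with a more negative change in Lrig1 GL cells), and DESeq2 called 132. The count was 10 without Lrig1 0w library 3, 5 without Lrig1 2w pw1 library b, and 1 without Lgr5 0w library a. Rab31, near absent from Lrig1 GL cells at 0w, stood at 32.3 ± 9.97 CPM at 0w and 46.02 ± 18.7 CPM at 2w pw1 in Lgr5 GL cells (SD, n = 3), and the log2 difference of the changes was 4.25 ± 0.85. Grip1 showed the same contrast, with 43.8 ± 32.05 CPM at 0w and 25.7 ± 8.35 CPM at 2w pw1 in Lgr5 GL cells and a difference of 5.90 ± 1.14. Patl1, a protein of mRNA decay bodies, had 0.513, 0.406 and 4.48 CPM at 0w and 71.1, 15.1 and 57.1 CPM at 2w pw1 in Lrig1 GL cells, against 24.5 ± 0.734 and 12.6 ± 2.68 CPM in Lgr5 GL cells. These 3 genes were low in the Lrig1 GL cells at 0w and present in the Lgr5 GL cells at both times.

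In the other direction, Nrp2, a co-receptor for semaphorins and VEGF, had 23.1, 25.2 and 19.2 CPM at 0w and 14.7, 8.82 and 11.2 CPM at 2w pw1 in Lrig1 GL cells, while Lgr5 GL cells went from 20.2 ± 1.21 to 116 ± 41.05 CPM (difference -3.46 ± 0.69, adjusted p = 0.0750). Dus1l, which modifies transfer RNA, overlapped within Lrig1 GL cells (81.6 ± 51.4 and 24.8 ± 13.5 CPM) and went from 10.8 ± 5.02 to 45.8 ± 14.02 CPM in Lgr5 GL cells. Tspan18, a tetraspanin, was at 0 in all Lrig1 GL libraries at 2w pw1 and at 70.8, 17.5 and 12.2 CPM at 0w, at least 23.7-fold lower. Krt1, the first keratin of IFE differentiation, did not separate in Lrig1 GL cells (3261 ± 2359 and 3747 ± 662 CPM) but stood at 17.9 ± 9.20 CPM at 0w and 2841 ± 2739 CPM at 2w pw1 in Lgr5 GL cells (difference -7.09 ± 1.51, adjusted p = 0.107). The median change from 0w to 2w pw1 in Lgr5 GL cells was -0.13 for the glycolysis and hypoxia list, 0.32 for the sebaceous list, -0.54 for the bulge list and 3.85 for the small proline-rich list, against 0.04 for all genes. The difference between the populations was not tested for lists.

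**Figure D5:**
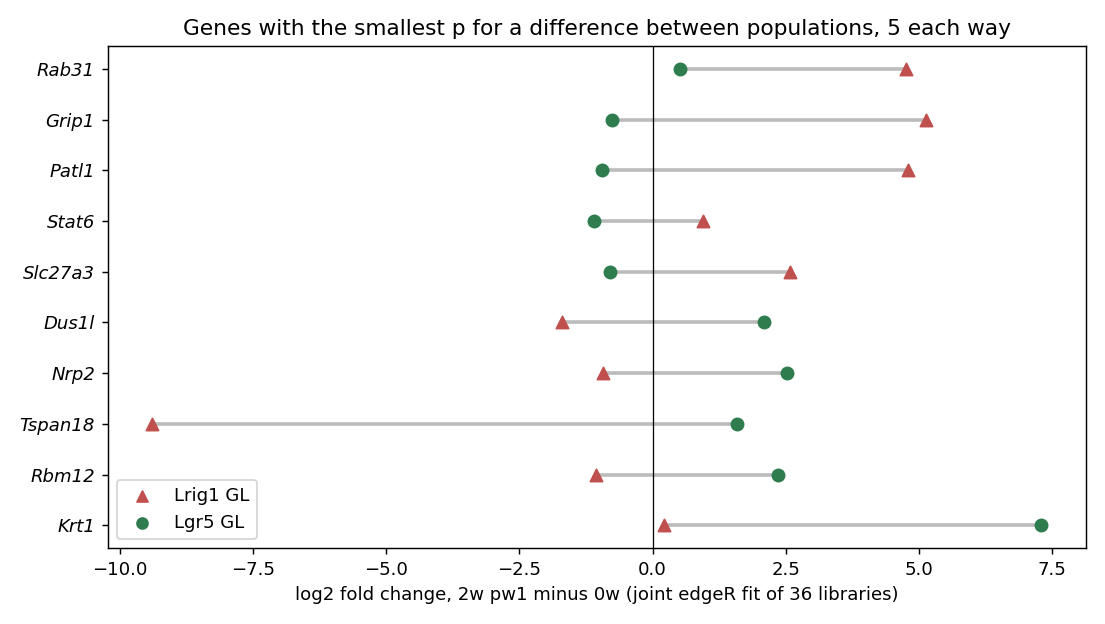
Log2 fold change of 2w pw1 minus 0w (x axis, joint edgeR fit of 36 libraries) in Lrig1 GL (triangles) and Lgr5 GL cells (circles) for the 10 genes with the smallest p for a difference between the populations, 5 in each direction. The grey line joins the 2 values of a gene, and none of the differences passed an adjusted p of 0.05.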

How the data were processed

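Mini-bulk RNA-seq of sorted tdTomato+ cells was analysed in 18 Lrig1 GL libraries, with 3 libraries from separate mice at each of 6 time points, and in the Lgr5 GL libraries for the test between populations. The authors trimmed the reads with Trim Galore 0.5.0, aligned them with HISAT2 to GRCm38, assigned them to the exons of each GENCODE M20 gene name using featureCounts, and deposited raw counts per gene without normalization. Genes with very few counts are not listed in the table of 20181 genes, and whether the counting used strand is not given in the sources used here, so reads of antisense partners cannot be told apart. Positions came from GENCODE M21, which held 20055 of these names, and promoters from RefSeq on GRCm38.p6.

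Counts were fitted in R 4.3.3 with edgeR 4.0.16 over all 18 Lrig1 GL libraries (filterByExpr by group with a minimum of 10 counts, TMM, quasi-likelihood test, prior count of 0.125, Benjamini-Hochberg adjustment), which left 14306 genes with a common biological coefficient of variation of 0.698. A gene was called in a contrast at an adjusted p below 0.05 and an absolute log2 fold change over 1, cut-offs that the study set on a single test of its whole time course, and the test between populations used the adjusted p alone. Single values per library were compared with two-sided exact permutation tests, which cannot go below 0.1 with 3 against 3 libraries. Named genes were those with a mean of 10 counts or more in the higher group and separated groups, up to 10 in each direction in order of p (5 in the other comparisons), the members of each list with the smallest p or the highest level, and a list of surface antigens and stem cell genes drawn largely from the study's text. Those of the other comparisons and lists are given in part. Symbols without a gene name (Gm and Rik) were not named, and 1 gene that met the rule against 0w is not reported here. Ldha, Slc16a3, Krt16, S100a9, Mmp13, Sprr2h, Sprr2b, Sprr2d, Elovl6, Pparg, Cidea, Far2, Acsbg1, Dgat2, Tpi1, Pgk1, Car9, Vegfa, Fosl1, Gas1, Plet1, Nfib, Nfatc1 and Fscn1 were named after their values were seen. The members, the lists and the tests were chosen with earlier results of these data known, so list counts are descriptions. The scripts were checked on simulated counts, with changed genes drawn from those with a mean of 10 counts or more. For 2w pw1 against 0w, 23 of 100 genes changed by a log2 fold of 2 were called, and 68 of 100 at 4. In the test between populations 6 and 47 of 100 were called. A count of 0 calls thus does not show that no gene changed.

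Alternatives were the likelihood ratio test, DESeq2 1.42.0, limma-voom (limma 3.58.1), other scalings and filters, surrogate variables (sva 3.50.0, 2 or the number it estimated, 5 for Lrig1 GL and 9 for both populations), a GC-dependent offset, a robust fit, only the groups compared, a replicate block and leaving out each library. Depth ran from 1491780 to 3295434 counts in the 6 libraries described, where 3 counts are 1.01 to 1.92 CPM.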

Additional observations from a re-analysis of the deposited data

How the results depend on the processing

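Genes called for 2w pw1 against 0w went from 0 to 185 in the likelihood ratio test, 261 in DESeq2, 12 with a minimum of 10 counts in 6 libraries, 4 with a GC-dependent offset, and 1 or 2 with a fixed or an estimated number of surrogate variables. The strict filter's 12 included Rab31, Cyp4f39, Grip1, Tent5a, Serpinb3d, Them5, Mmp3 and Atp7a, and the 4 were Rab31, Cyp4f39, Tent5a and Atp7a. The count stayed at 0 with limma-voom, DESeq2's size factors, upper quartile factors, no filter, a robust fit and only the groups compared. Leaving out single libraries gave 0 to 37. For 1w pw1, 4w pw1 and the mean of the other wounded groups, the likelihood ratio test gave 2, 8 and 22 calls and DESeq2 18, 13 and 50, limma-voom gave 1 for the last, and leaving out single libraries gave 0, 0 and 0 to 1. Against 8w pw1 the 66 calls became 624 in the likelihood ratio test, 871 in DESeq2, 707 in limma-voom, 17 without a filter, 108 with the strict filter, 104 in a robust fit, 3 with the GC-dependent offset, 0 with 2 surrogate variables, 2 with the estimated number, 0 with only the groups compared, and 0 to 178 without single libraries. The test between populations went from 0 to 109 in the likelihood ratio test, 132 in DESeq2, 6 with estimated surrogate variables and 0 to 10 without single libraries. The causes were not tested.

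Among list medians, that of the mitochondrially encoded genes went from 0.35 to -0.21 with the GC-dependent offset. Without single libraries, the medians ran from 2.27 to 4.61 for the small proline-rich list, 0.066 to 1.18 for wound keratins and alarmins, -1.59 to -0.88 for the sebaceous gland, -0.30 to 0.10 for Polycomb, 0.52 to 0.70 for the surface antigen and stem cell list, -0.18 to 0.024 for heat shock and -0.80 to 0.63 for interferon genes. The remaining 228 values, each the median of 1 of the 27 lists under 1 alternative, moved by less than the spread between libraries. Krt71 ran from -4.79 to 1.41 without single libraries, with a reversal from -4.20 to 1.41 without library 3 at 0w. Of the other values of named genes under all alternatives, 2288 kept their direction and side of the threshold, 148 kept their direction and newly passed it, and 84 kept their direction and no longer passed it.

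With the replicate number as a block (replicate block), the calls were 0 against 0w, 1w pw1, 4w pw1 and the other wounded groups, 26 against 8w pw1 and 0 between populations. The numbers gave no sign of pairing: the deviations from the group means of same-numbered libraries at 0w and 2w pw1 correlated at 0.0171 and 0.0109 across genes, against -0.0340 to 0.0286 for other numbers. Among the named genes, Cox4i1 and Fzd7 lost their calls against 8w pw1 under the block, and no other named gene's call changed.

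Depth, the small pools of sorted cells and 3 libraries a group limit what can be seen. A gene with 3 counts stands at 1.01 to 1.92 CPM, and levels near it carry counting error of their own size.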
